A study of Mus musculus with 117 samples.

Results

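WSB/EiJ is an inbred strain derived from wild house mice, and its hepatocytes were compared here with those of 8 other inbred strains by their chromatin states. A stretch of 200 bp (a bin) on chromosomes 1 to 19 was counted as private to WSB/EiJ where the other 8 strains shared 1 state and WSB/EiJ had another. This held for 248051 of 12313718 bins, or 2.01%, which is 49.6 Mb of 2463 Mb. It was 3.21% of the 7731041 bins in which the other 8 strains shared a state. The states of all 9 strains chose these bins, so their number and their changes of state are a description, with no test.

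The other strains were the laboratory strains 129S1/SvImJ, A/J, C57BL/6J, DBA/2J, NOD/ShiLtJ and NZO/HlLtJ and the wild-derived CAST/EiJ and PWK/PhJ. WSB/EiJ descends mainly from Mus musculus domesticus, as the laboratory strains largely do, CAST/EiJ from M. m. castaneus and PWK/PhJ from M. m. musculus. All mice were females 12 weeks old, and the labels name no treatment or introduced allele. For each strain, chromatin immunoprecipitation sequencing (ChIP-seq) of H3K4me1, H3K4me3, H3K27ac and H3K27me3 was done in hepatocytes of 3 mice, beside 1 input library sequenced without an antibody, which gives 13 libraries per strain and 117 in all. The authors' deposited files hold 1 segmentation per strain, so the mice of a strain were combined, the spread between mice cannot be given and the depth behind a state is unknown. With 1 strain against 8, an exact permutation test cannot go below p = 0.111, so no difference between WSB/EiJ and the other strains was tested.

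A segmentation reads several histone marks together and gives each stretch of the genome the number of a recurring combination, its chromatin state. H3K4me3 is known from active promoters, H3K4me1 and H3K27ac from enhancers and active promoters, and H3K27me3 from genes held silent by Polycomb repressive complexes, many of which encode regulators of development. In hepatocytes, the metabolic and secretory cells of the liver, this silencing covers many genes of other tissues. The deposited files give states by number only, and no mark is assigned to a number here.

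The numbers can be placed by where they lay in WSB/EiJ. State 14 covered 74.8% of its autosomal bins, the lowest share of the 9 strains (the other 8 had 74.9% to 78.6%), and state 13 covered 13.1%, the highest (9.40% to 12.8%). State 3 covered 0.364% of the bins but 37.8% of the 20085 start sites of protein-coding genes, and state 1 held 11.8% of them, state 13 held 10.7% and state 14 held 22.3%. The starts of 7 of 7 hepatocyte markers with a start in the RefSeq table (Alb, Apoa1, Apob, Cyp2e1, Fgb, Hnf4a and Serpina1a) were in states 1, 2 or 3 in WSB/EiJ, against 6 or 7 in the other strains. The same states held the starts of 0 of 6 Kupffer cell and leukocyte markers, 0 of 4 endothelial markers, 1 of 4 stellate cell markers (Reln) and 0 of 3 bile duct markers. The other strains had 0 or 1, 0 to 2, 1, and 0 or 1 of these.

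Promoters of 6 genes are printed to show the kinds of sequence at which the start site itself had a private state in WSB/EiJ. Each is the 250 bases before the annotated start, 5′ to 3′, from RefSeq on GRCm38.p6, with every CG in capitals, and the 50 transcribed bases of the table's entries are left out. Csf2 (chr11:54249900-54250149, minus strand), Havcr2 (chr11:46454681-46454930, plus strand) and Cdkn1a (chr17:29090729-29090978, plus strand) lay in state 14 in the other 8 strains, and each holds 2 CGs. Neurod1 (chr2:79456637-79456886, minus strand) and Hmx3 (chr7:131542713-131542962, plus strand) lay in state 13 in the others, and hold 22 and 31 CGs. Nxpe2 (chr9:48340899-48341148, minus strand) lay in state 1 in the others and holds 3.
Csf2: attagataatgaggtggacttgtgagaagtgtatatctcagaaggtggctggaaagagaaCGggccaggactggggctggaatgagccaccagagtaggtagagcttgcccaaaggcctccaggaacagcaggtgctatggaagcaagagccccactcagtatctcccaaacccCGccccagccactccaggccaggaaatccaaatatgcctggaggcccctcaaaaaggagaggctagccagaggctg
Havcr2: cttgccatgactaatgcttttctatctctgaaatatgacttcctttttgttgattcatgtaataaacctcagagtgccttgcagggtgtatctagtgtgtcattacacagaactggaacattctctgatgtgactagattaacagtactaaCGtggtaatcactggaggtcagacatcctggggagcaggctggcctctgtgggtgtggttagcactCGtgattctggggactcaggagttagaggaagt
Cdkn1a: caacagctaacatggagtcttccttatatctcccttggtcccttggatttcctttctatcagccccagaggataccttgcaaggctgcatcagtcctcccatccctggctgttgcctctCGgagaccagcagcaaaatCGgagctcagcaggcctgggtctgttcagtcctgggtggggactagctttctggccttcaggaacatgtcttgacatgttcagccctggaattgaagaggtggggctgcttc
Neurod1: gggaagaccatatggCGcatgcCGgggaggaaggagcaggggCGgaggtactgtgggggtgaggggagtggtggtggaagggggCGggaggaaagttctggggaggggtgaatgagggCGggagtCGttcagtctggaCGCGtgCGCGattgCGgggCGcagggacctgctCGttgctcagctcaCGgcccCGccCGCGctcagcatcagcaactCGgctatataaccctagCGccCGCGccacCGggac
Hmx3: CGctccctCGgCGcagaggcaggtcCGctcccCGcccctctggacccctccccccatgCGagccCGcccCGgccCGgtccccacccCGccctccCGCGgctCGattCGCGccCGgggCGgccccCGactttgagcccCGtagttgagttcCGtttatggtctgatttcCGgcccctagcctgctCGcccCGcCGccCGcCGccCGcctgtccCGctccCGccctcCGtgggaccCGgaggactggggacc
Nxpe2: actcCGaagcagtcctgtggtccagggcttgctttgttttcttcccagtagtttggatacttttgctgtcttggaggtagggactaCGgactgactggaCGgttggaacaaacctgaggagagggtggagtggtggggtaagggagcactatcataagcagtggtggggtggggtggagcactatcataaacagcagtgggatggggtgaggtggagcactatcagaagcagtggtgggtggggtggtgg

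In WSB/EiJ the start site was in state 13 at Csf2, Havcr2 and Nxpe2, in state 10 at Neurod1 and Hmx3 and in state 4 at Cdkn1a. Csf2 encodes a cytokine of myeloid cells, Havcr2 an inhibitory receptor of T cells, Cdkn1a the cell cycle inhibitor p21, and Neurod1 and Hmx3 transcription factors of neurons and the inner ear. Nxpe2 belongs to a family related to the neurexophilins.

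Private bins of WSB/EiJ were mostly stretches of state 13 where every other strain had state 14. The change from 14 to 13 made up 181095 bins, or 73.0% of the private bins, in 42507 segments (runs of touching private bins with the same change). It was 2.57% of the 7036532 bins in which the other 8 shared state 14. In the other strains' own private bins this change made up 34.5% to 70.6%, with a median of 45.5%, so WSB/EiJ had the highest share. The opposite change, from 13 to 14, made up 13005 bins, or 5.24%, which was 3.86% of the 336906 bins in which the others shared state 13. The bins gained in state 13 thus outnumbered those lost to state 14 by 13.9 to 1, below A/J at 16.4 and above the median of 3.82 over the other 8 strains.

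The next most frequent changes were 14 to 4, with 21089 bins (8.50%), 14 to 6, with 8453 (3.41%), and 6 to 14, with 4672 (1.88%). These and the exchanges between 13 and 14 held 92.04% of the private bins, although 115 of the 182 possible changes were seen. In all, 85.8% of the private bins were gains from state 14, 8.04% were losses to state 14 and 6.14% were changes between other states. The share of gains was the highest of the 9 strains, with the others between 61.3% and 84.9%.

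By number of private bins WSB/EiJ ranked 3 of 9. PWK/PhJ had 561176 (4.56% of the autosomal bins) and CAST/EiJ had 289622 (2.35%), while the other 6 had between 0.647% in C57BL/6J and 1.51% in NOD/ShiLtJ. Among bins that the other 8 shared in state 3, the commonest state of gene starts, WSB/EiJ departed in 3.26%, the highest of the 9 strains by a narrow margin (0.656% to 3.17%), and 84.3% of these departures were to state 1. It departed in 12.4% of the bins shared in state 6 (the others 3.24% to 17.6%), of which 69.8% went to state 14. State 1 was left in 3.20% (0.673% to 7.70%), mostly for state 2. State 10 covered 0.215% of the autosomal bins of WSB/EiJ, and at most 0.190% in another strain.

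**Figure D1:**
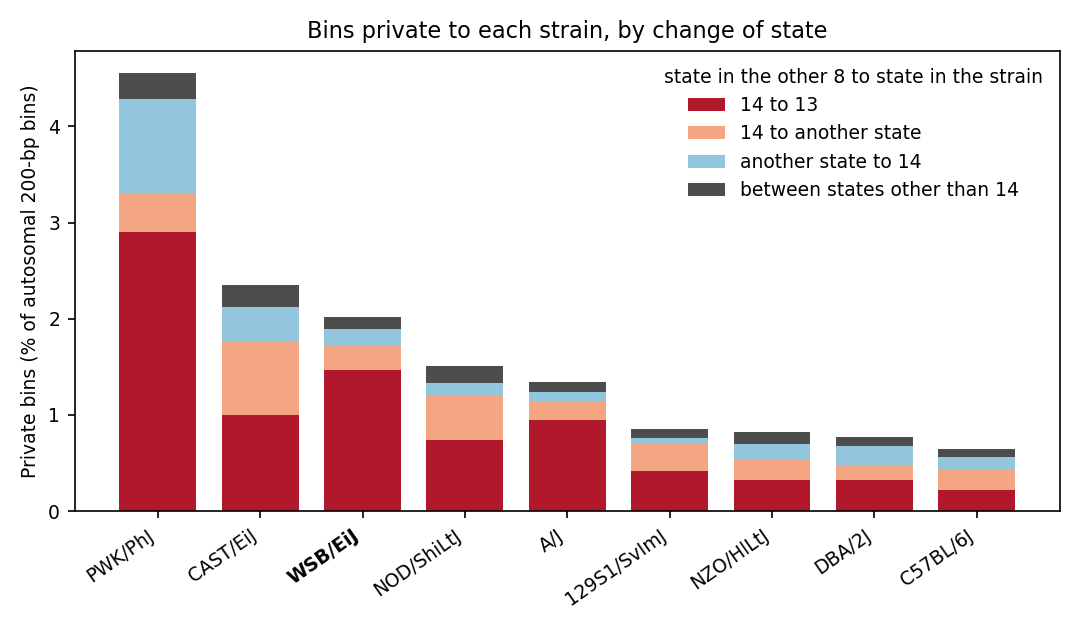
Private bins of each of the 9 strains as a percentage of autosomal 200-bp bins (vertical axis), stacked by the change from the state of the other 8 strains to the state of the strain. WSB/EiJ, at 2.01%, is the third bar, and its changes from state 14 to state 13 make up 73.0% of it.

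**Figure D2:**
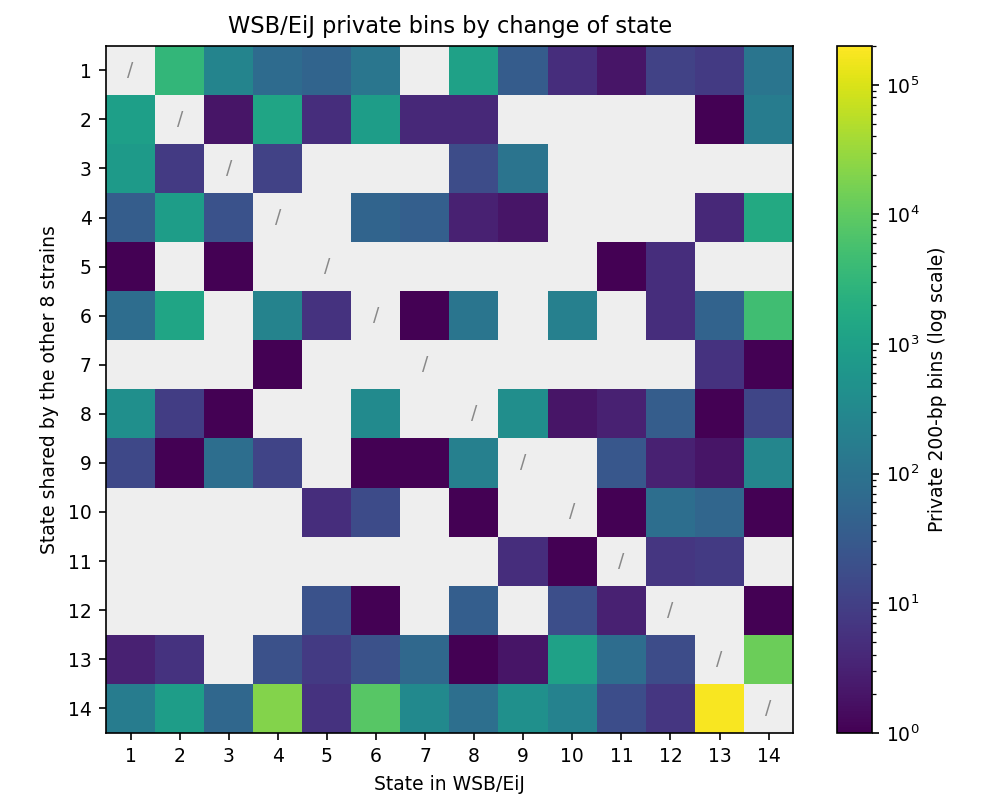
Number of WSB/EiJ private bins (colour, log scale) for each state shared by the other 8 strains (rows) and each state in WSB/EiJ (columns), with changes that were not seen in grey. The brightest cell, 14 to 13, holds 181095 bins, and the cells for 14 to 4 and 13 to 14 follow with 21089 and 13005.

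The private bins formed 75214 segments with a median length of 400 bp and a mean of 660 bp. Single bins made up 38.2% of the segments, whereas the 17001 segments of 1 kb or more held 56.96% of the private length. Segments of the change from 14 to 13 had a median of 600 bp and a 99th percentile of 3800 bp. Of the 180 segments of 5 kb or more, 165 were of this change, as were all 7 of 10 kb or more. Losses to state 14 had a median of 400 bp and reached 6400 bp, and changes between other states had a median of 200 bp and reached 2600 bp.

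Most of these stretches adjoined state 13 already present in another strain. Of the segments from 14 to 13, 71.7% had state 13 in at least 1 other strain within 200 bp of an edge and 79.4% within 1 kb. In 7.93% no other strain had state 13 within 5 kb, against 2.45% to 22.1% for the private segments of this change in the other strains. By bins, 69.5% of the private state 13 of WSB/EiJ lay in segments of its state 13 that overlapped state 13 of another strain. A further 27.7% lay in segments private over their whole length. The rest lay in segments private in part that overlapped no state 13 of another strain. Of the losses to state 14, 87.5% adjoined state 14 of another strain. State 14 covered 74.9% to 78.6% of the bins of the other strains, so a high share follows from its extent. For the change from 14 to 4 the adjoining share was 57.8%, but state 4 covered only 1.89% to 3.49% of their bins. The adjoining shares of different states therefore cannot be compared.

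A looser rule shows what lies just outside. In a further 265876 bins exactly 7 of the other 8 strains shared a state that WSB/EiJ did not have, and in 90.4% of them the remaining strain had the state of WSB/EiJ. That strain was A/J in 52353 of these bins and CAST/EiJ in 34558, the highest counts. The change from 14 to 13 made up 57.8% of the bins just outside, against 73.0% inside.

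Private bins lay in bodies of protein-coding genes in 42.0% of cases, against 38.0% of the bins in which the other 8 shared a state. For the change from 14 to 13 the share was 38.1%, against 36.3% of all bins shared in state 14. Losses of state 6 to state 14 lay in gene bodies in 83.8% of cases, near the 78.8% of all bins shared in state 6. Of all private bins, 1.47% lay within 1 kb of a gene start, against 1.29% of the bins in which the others shared a state.

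Chromosomes differed in their private share. Chromosome 7 had the highest, with 24152 private bins or 3.32%, followed by chromosomes 11 and 9 at 2.85% each. Chromosomes 18 and 10 had the lowest, at 1.32% and 1.43%. On chromosomes 1, 2, 7, 9 and 11 WSB/EiJ ranked 2 of the 9 strains, and elsewhere 3 or 4.

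The private bins were spread over nearly all of the autosomes, with a small number of denser regions. Of 2454 windows of 1 Mb, 2389 held private bins and 65 held none, and the median share was 1.46%, with quartiles of 0.70% and 2.62%. WSB/EiJ had the highest private share of the 9 strains in 494 windows, or 20.1%. In 30 windows it had 10% or more, and these held 18483 private bins, or 7.45% of all. The highest value of another strain in these 30 windows, which were picked for a high share in WSB/EiJ, was between 1.12% and 8.74%, with a median of 2.87%. Chromosome 7 held 9 of the 30, chromosome 2 held 5, and chromosomes 11 and 12 held 3 each. CAST/EiJ and NOD/ShiLtJ had 3 windows of 10% or more each, PWK/PhJ had 283 and the other 5 strains had 0.

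The window with the highest share, chr7:71000001-72000000, had 15.7% private bins and holds no protein-coding gene, and at most 1.76% of it was private to another strain. It was followed by chr4:104000001-105000000, with 14.7%, which holds most of Dab1 and the complement genes C8a and C8b. The 3 adjoining windows of chr2:161000001-164000000 had 14.1%, 14.6% and 14.3%. Among many genes they hold Ptprt, Tox2 and Hnf4a, the last a master transcription factor of hepatocytes. Private bins of Hnf4a itself are not given here. Over 20 hepatocyte transcription factor genes taken as a list, 0 of 57 private bins went from 14 to 13. The window chr11:112000001-113000000 had 14.2%, with Sox9, a transcription factor of bile duct cells and cartilage, as its only protein-coding gene. In these 6 windows the highest value of another strain was 6.14%, that of CAST/EiJ in the first window of chromosome 2. The change from 14 to 13 made up at least 86.5% of the private bins in each of them. Windows chr12:117000001-118000000 and chr7:138000001-139000000 ranked between them, with 14.5% and 14.3%, and hold Ptprn2 and Tcerg1l among other genes.

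**Figure D3:**
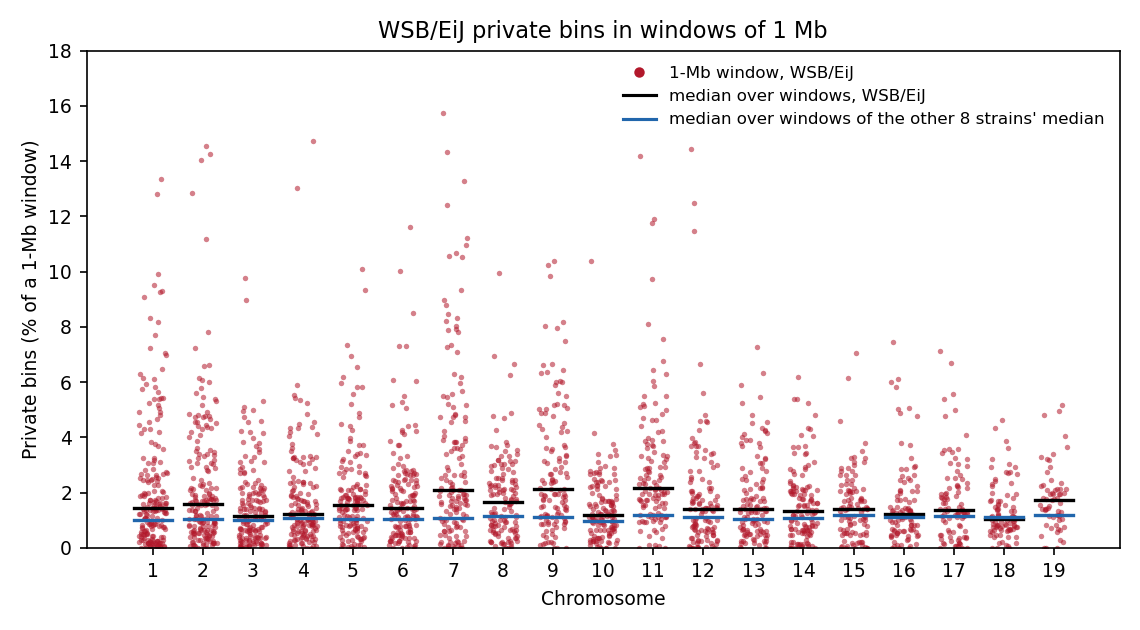
Percentage of each 1-Mb window (points) that was private to WSB/EiJ, by chromosome, with the median over windows in black and, in blue, the median over windows of the other 8 strains' median. The 30 windows at 10% or more lie on chromosomes 1, 2, 4, 5, 6, 7, 9, 10, 11 and 12.

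A private bin was found in the body or within 1 kb of 10023 of 20665 protein-coding genes, or 48.5%. Touched genes were longer, with a median length of 37.5 kb against 8.46 kb for the others. Only 854 genes had 10% or more of their bins private, and 162 had 100 bins or more. Of 16457 genes with a start in the RefSeq table, 2078, or 12.6%, had a private bin within 1 kb of a start, and in 74 of them at least 50% of that window was private.

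The genes with the most private bins are long, most of them known from neurons, and in each the change was almost wholly from 14 to 13. A ranking by number of bins favours long genes, and no share over genes of like length is given, so the kind of gene is not a finding. Ptprt, a receptor tyrosine phosphatase of the brain (chr2:161521988-162661147), had 980 private bins, 17.2% of its 5707, of which 978 went from 14 to 13. State 13 covered 50.6% of it in WSB/EiJ, against 6.87% at the lowest, 16.3% at the median and 25.1% at the highest in the other 8 strains. The other strains had 14 to 111 private bins there.

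Dab1, the adaptor through which reelin signals to migrating neurons (chr4:103619500-104744844), had 956 private bins, or 17.0%. State 13 covered 37.2% of it in WSB/EiJ and between 2.00% and 16.1% in the other strains, with a median of 7.12%. Slit3, a secreted guidance cue that binds Robo receptors, had 559 private bins, or 18.97%. Its state 13 covered 50.4% in WSB/EiJ, between 1.56% and 26.3% in the others and 8.995% at their median.

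The RNA-binding protein gene Rbms3 had 480 private bins (9.06%), and Ptprn2, which encodes a phosphatase-like protein of secretory vesicles, had 417 (10.5%). Syn3, a synapsin of synaptic vesicles, had 405 (17.9%), with state 13 over 20.3% of it in WSB/EiJ and at most 1.77% in another strain, that of C57BL/6J. The other 8 strains thus had almost no state 13 over Syn3. The next genes were Ano2, a chloride channel of olfactory neurons, with 397 private bins (22.6%), and Tenm4, a teneurin that links neurons, with 390 (10.5%). Prkcb, a protein kinase C, had 357 (20.5%), and Rbfox1, a splicing factor of neurons, had 335 (4.38%).

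State 13 was wide in the other strains too at the last 4 of these genes. At Ano2 it covered 71.9% in WSB/EiJ and 14.3% to 36.0% in the others. At Tenm4 it covered 64.5%, against 23.8% to 44.1%, and at Prkcb 76.6%, against 13.2% to 42.2%. Rbfox1 had 54.9% in WSB/EiJ and a median of 38.3% in the others, and there PWK/PhJ stood out with 1.37% and with 722 private bins of its own. Since the 10 genes were chosen for private bins of WSB/EiJ, its higher share of state 13 in them follows largely from the choice.

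**Figure D4:**
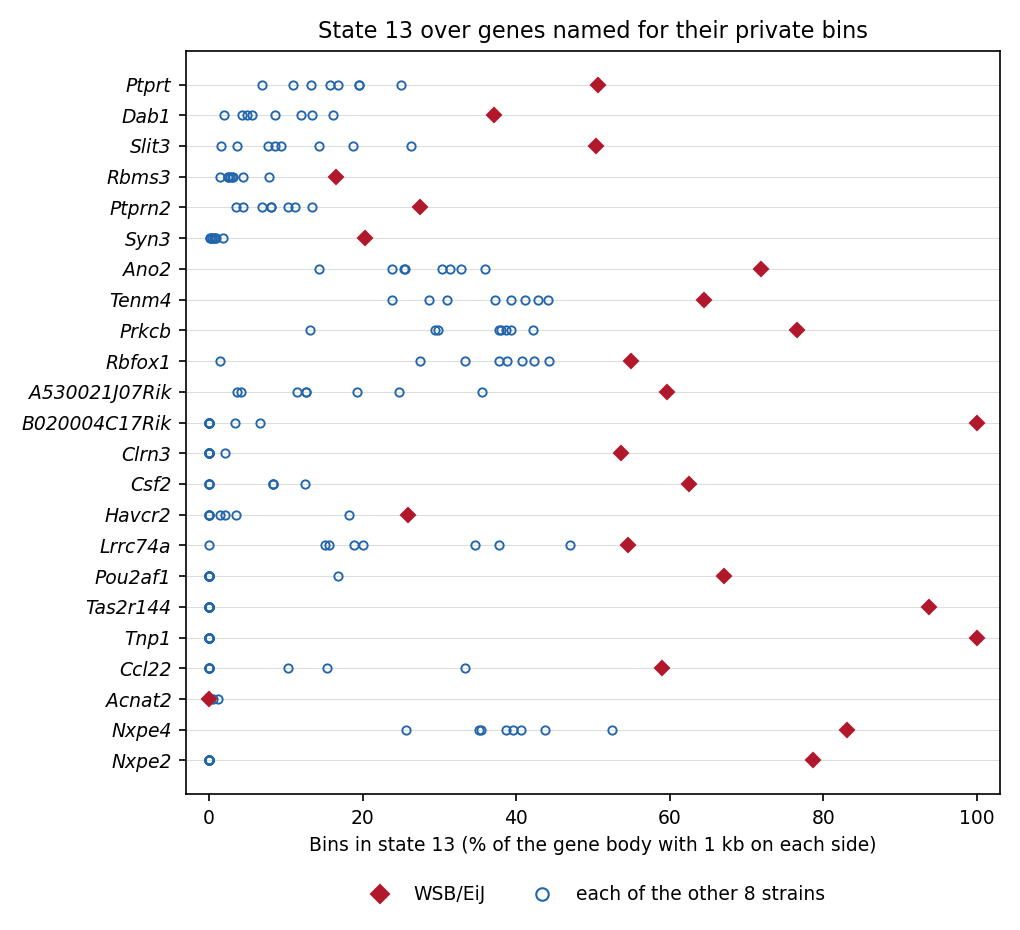
Percentage of bins in state 13 over each gene body with 1 kb on each side, for WSB/EiJ (red diamonds) and each of the other 8 strains (blue circles), in genes named for their number of private bins, their private start or a long segment. Since the genes were chosen for private bins, WSB/EiJ lies high in most of them. Its distance from the other strains is narrow at Lrrc74a and Havcr2 and wide at Tnp1 and Nxpe2, and it has no state 13 at Acnat2.

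The longest private segment was chr6:125967401-125987800, 20400 bp in the body of Ano2, where WSB/EiJ had state 13 and the other 8 strains state 14. The next was chr9:48318601-48335600, 17000 bp of the same change in the bodies of Nxpe2 and Nxpe4, whose annotated bodies overlap. The next after that was chr4:104548201-104565000, 16800 bp in Dab1. The longest losses were chr10:58212601-58219000 and chr15:88042801-88049200, 6400 bp each, and chr6:42647201-42652800, 5600 bp, all from 13 to 14 and all outside protein-coding genes. The longest change between other states, 2600 bp from state 1 to state 2 at chr4:49378801-49381400, lay in Acnat2, an acyltransferase that conjugates fatty acids with amino acids. Acnat2 has a close copy nearby, so reads may not be placed uniquely and its states are uncertain. Another 2600 bp segment, from 6 to 10 at chr7:136492001-136494600, lay 399863 bp from the nearest protein-coding gene, Mgmt.

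Nxpe2 was the only gene whose start site lay in states 1, 2 or 3 in the other 8 strains and in 13 or 14 in WSB/EiJ, among 7693 start sites where the others shared state 1, 2 or 3. In the other strains the start lay in a state 1 segment of 600 bp in A/J to 2200 bp in C57BL/6J, with a median of 1100 bp. In WSB/EiJ it lay in a state 13 segment of 26200 bp, chr9:48318201-48344400. State 13 covered 78.7% of the gene in WSB/EiJ and none of it in any of the other 8 strains. Within the same gene, 90 of its 98 private bins went from 14 to 13 and 3 from 1 to 13. States 1, 2, 4 and 6 together with state 14 filled most of the region in the other strains, as the map of states around its start shows.

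In the reverse direction, among 3742 start sites where the others shared state 13 or 14, 1 lay in states 1, 2 or 3 in WSB/EiJ. This was the start of Gm5294, a predicted gene, in a state 2 segment of 1000 bp, where the other strains had state 14 segments of 6400 to 14200 bp. Gm5294 was not checked for copies elsewhere in the genome.

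**Figure D5:**
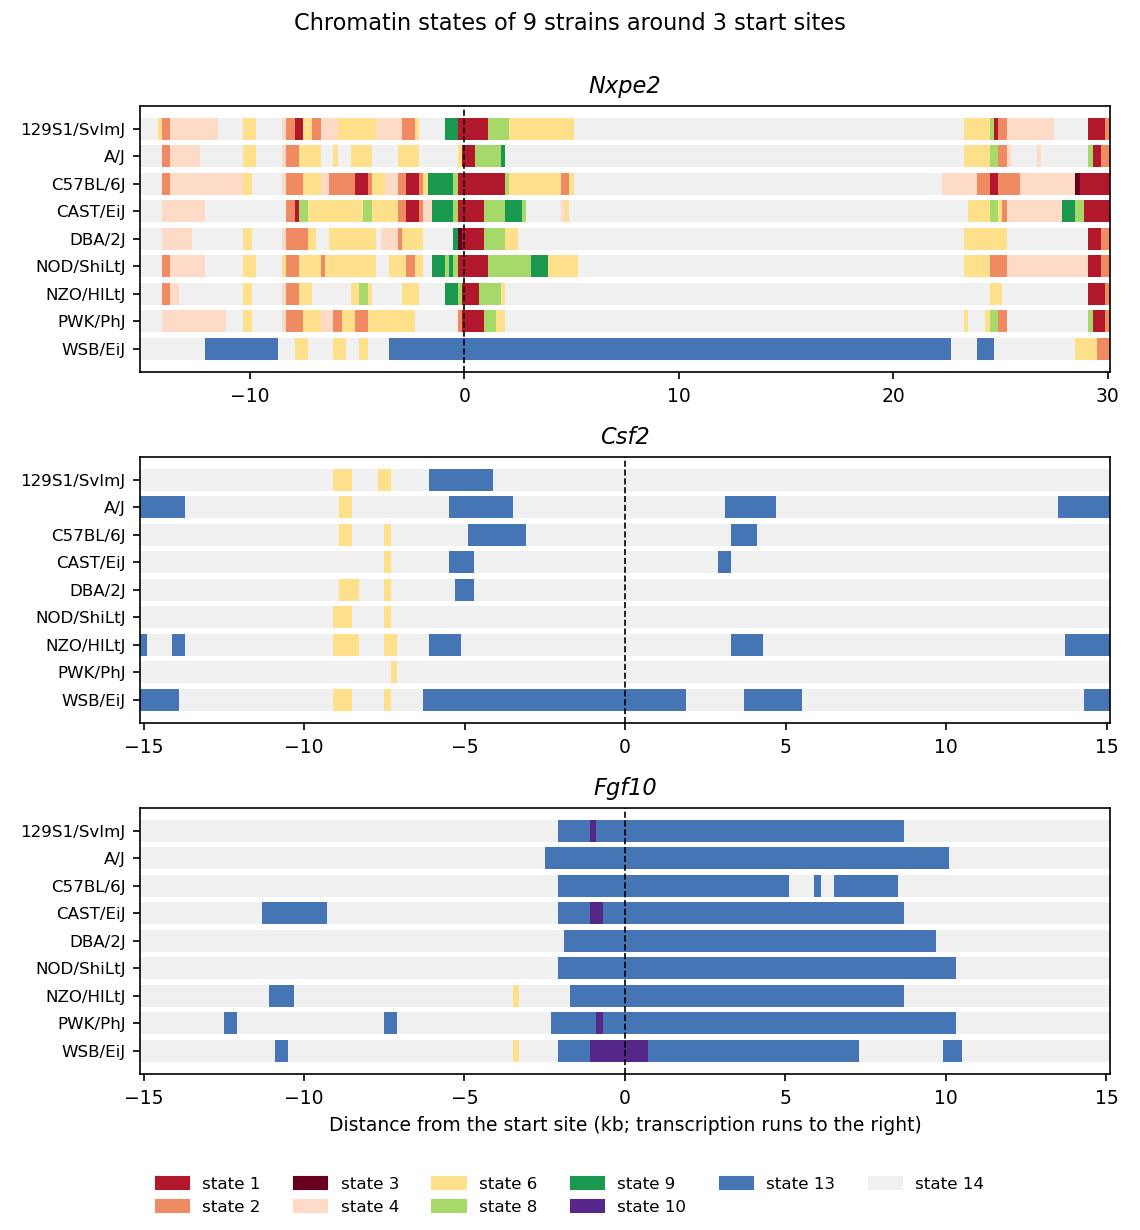
Chromatin states (colours) of the 9 strains against the distance in kb from the start sites of Nxpe2, Csf2 and Fgf10, with transcription to the right of the dashed line. WSB/EiJ, the lowest strip of each panel, has state 13 at the start of Nxpe2 where the others have state 1, state 13 at Csf2 where they have state 14, and state 10 at Fgf10 where they have state 13.

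Genes whose start window was private in full, 11 of 11 bins, were 9, and in each the other 8 strains had state 14 and WSB/EiJ state 13 throughout the window. They included genes of immune cells (Csf2, Havcr2 and Pou2af1, the last a coactivator of B cells), a bitter taste receptor (Tas2r144) and the spermatid protein Tnp1, which packs DNA in sperm. Clrn3, Lrrc74a, A530021J07Rik and B020004C17Rik were the other 4. Ccl22, a chemokine that draws T cells, followed with 10 of 11 bins.

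At Tnp1 and B020004C17Rik state 13 covered the whole gene with its flanks in WSB/EiJ. The other 8 strains had 0% of Tnp1 in state 13, and at most 6.67% of B020004C17Rik. Tas2r144 had 93.8% in WSB/EiJ and 0% in every other strain. The segment of state 13 at the start was 7400 bp at Tnp1, 6800 bp at Tas2r144 and 14600 bp at B020004C17Rik. The private stretch in it was 7400 bp, 6600 bp and 5400 bp. The genes were chosen for private bins at the start, which these percentages include, so they describe the choice.

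At Csf2 state 13 covered 62.5% in WSB/EiJ and at most 12.5%, in A/J, elsewhere. The start lay in a state 13 segment of 8200 bp, chr11:54248001-54256200, in WSB/EiJ and in state 14 segments of 6400 bp (C57BL/6J) to 54800 bp (DBA/2J) in the others. The private stretch at the start was 5000 bp. Pou2af1 had 72 private bins, 50.3% of its 143. Its start lay in a state 13 segment of 25000 bp, chr9:51193601-51218600, in WSB/EiJ, most of it upstream of the gene. The private stretch at the start was 6200 bp, chr9:51212401-51218600. Over the gene with its flanks, 7 of the other 8 strains had no state 13 and A/J had 16.8%. Havcr2 and Ccl22 were less far apart from the rest, at 25.9% against at most 18.2% in A/J, and at 59.0% against at most 33.3% in 129S1/SvImJ.

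The start site itself, as 1 bin, was private at 396 of 20085 sites (1.97%), in 376 genes. This was 3.37% of the 11767 sites where the other 8 shared a state, against 1.16% to 4.75% for the private start sites of the other strains. The change from 14 to 13 accounted for 142 of them, 3 to 1 for 76, 3 to 9 for 39 and 13 to 10 for 30. The remaining changes had 14 sites or fewer each.

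The 142 sites that went from 14 to 13 were CpG-poor. Their median ratio of observed to expected CG in the 300 bases around the start was 0.205, and 1 of them (0.704%) reached 0.6, a level used for CpG islands. All sites shared in state 14 had a median of 0.167, and 2.67% reached 0.6. The motif TATAAA, searched on both strands, was in 16.9% of the 142, in 28.0% of the sites shared in state 14 and in 12.7% of all 20085. The 142 sites belong to 132 genes of varied function, among them olfactory and vomeronasal receptors, defensins and predicted genes. Further examples, picked after their values were seen, are the cytokine gene Il1b, the chemokine receptor gene Ccr4, the growth factor genes Bmp4 and Pgf, the pluripotency factor gene Pou5f1, the gut hormone genes Gip and Insl5, the aromatase gene Cyp19a1 and the bile acid and nucleotide transporter gene Abcc4.

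The 30 sites that went from 13 to 10 were CpG-richer. Their median ratio was 0.610, and 53.3% reached 0.6, against 0.395 and 25.8% for the 671 sites shared in state 13. The motif GGGCGG was in 56.7% of them, in 33.7% of the sites shared in state 13 and in 47.0% of all sites, and CCAAT in 36.7%, 36.2% and 38.1%, both searched on both strands. Another strain's private start sites had this change at 2 to 31 places, the latter in CAST/EiJ, with a median of 4. The 30 sites belong to 29 genes of varied function. Those named here as examples, picked after their values were seen, encode transcription factors of development (Neurod1, Nkx2-5, Dbx1 and Hmx3), signalling proteins (Fgf10, Wnt16, Rspo4 and Sema3a), and proteins of neurons (Gad1, which makes the transmitter GABA, the glutamate receptor gene Grm3, the potassium channel gene Kcnj3, and Slitrk1). Others include Ahrr, Sphk1, Bdkrb2, Lrrc43 and Ncmap.

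At Fgf10, the growth factor of branching lung and limb bud (start at chr13:118714699, plus strand), WSB/EiJ had a state 10 segment of 1800 bp at the start. The other strains had state 13 segments of 7200 bp to 12600 bp there, with a median of 10700 bp. State 10 was present near the start in 129S1/SvImJ, CAST/EiJ and PWK/PhJ too, over at most 1.32% of the 30 kb around it, against 5.96% in WSB/EiJ. At Hmx3 the state 10 segment was 2000 bp, at Gad1 1400 bp and at Nkx2-5 1200 bp. The shortest state 13 segment of another strain at these starts was 600 bp, 800 bp and 1400 bp. The private stretch at the start was thus at most 600 bp at Hmx3 and 800 bp at Gad1. At Neurod1 it was 1 bin of 200 bp inside a wide stretch of state 13, and the share of state 10 within 10 kb was 2.97% in WSB/EiJ, the same as in A/J.

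Sites that went from state 3 to state 1 or 9 were mostly CpG-rich, with medians of 0.764 and 0.805 beside 0.846 for all 6681 sites shared in state 3. The 76 sites of the change from 3 to 1 were 1.14% of the sites shared in state 3, and the other strains had 14 to 86, the latter in NOD/ShiLtJ. The 76 sites belong to 73 genes of varied function, and the examples named here were picked after their values were seen. Metabolic genes of the liver among these examples are Fasn, the fatty acid synthase, and Fbp1, an enzyme of gluconeogenesis. Pdk4, which restrains pyruvate oxidation, and Gpx4, which removes lipid peroxides, are others. Krt18, a keratin of hepatocytes, and the cytokine signalling genes Socs1 and Irf8 also belonged to them. At Krt18 the start lay in a state 1 segment of 3800 bp in WSB/EiJ and in state 3 segments of 400 bp to 1000 bp in the others. The private stretch at that start was thus at most 400 bp, and at Fasn, Pdk4 and Gpx4 it was a single bin. Over all autosomes, private segments of this change had a median of 200 bp. The 39 sites that went from 3 to 9 were more than in any other strain (1 to 30, the latter in A/J). Examples from their 38 genes, picked in the same way, are the cell cycle factor E2f1, the histone deacetylase Hdac4 and the acetyltransferase Kat2a.

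A smaller group of 13 start sites went from 14 to 4, including Cdkn1a, whose start printed above (chr17:29090979, plus strand) lay in a state 4 segment of 1400 bp in WSB/EiJ. The other 8 strains had state 14 segments of 7400 bp to 10600 bp there. Around it, state 4 covered 9.27% to 23.2% of 30 kb in the other strains and 12.6% in WSB/EiJ, so WSB/EiJ was not apart in the amount of state 4. All 9 strains had state 1 farther inside Cdkn1a, beginning 2422 bp downstream of this start in C57BL/6J and up to 2822 bp downstream in others, WSB/EiJ included.

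Genes of hepatocyte functions were touched at rates on both sides of the 48.5% of all protein-coding genes, and their private bins were few and seldom in state 13. Of 19 genes of hepatocyte identity and secreted proteins 9 were touched (47.4%), of 20 hepatocyte transcription factors 15 (75%), and of 24 genes of the urea cycle and amino acids 18 (75%). The transcription factor genes are longer, with a median length of 37.1 kb against 17.5 kb for all genes. They had 1.19% of their bins private, below the 2.10% of all genes. The urea cycle genes had 1.92%, near that share, and 0 of their 63 private bins went from 14 to 13. The other lists of hepatocyte functions and the circadian clock genes had 0.930% to 1.64%. In Cps1, the first enzyme of the urea cycle, 8 of 12 private bins went from 6 to 2, and in Ass1, a later enzyme, 4 of 5 went from 2 to 1. In Hgd, an enzyme of tyrosine breakdown, all 8 went from 4 to 14.

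Of 30 cytochrome P450 and oxidation genes 14 were touched (46.7%), of 30 genes of conjugation and carboxylesterases 13 (43.3%) and of 20 genes of bile acid synthesis and transport 11 (55.0%). In Cyp3a25 all 9 private bins went from 2 to 1, and in Abcb11, the bile salt export pump, 12 of 15 went from 14 to 4. Abcc3, an efflux pump of the basolateral membrane, had 12, of which 8 went from 2 to 4. Cyp3a25, Ugt2b36, with 5 private bins, Ces1c, with 4, and Cyp2c39, with 9, belong to families of close copies, so their states are less certain.

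Of 37 genes of fatty acid and cholesterol metabolism 24 were touched (64.9%), and of 19 genes of glucose metabolism 13 (68.4%). Lpin1, a phosphatidate phosphatase, had 11 private bins, and Elovl5, which lengthens fatty acids, had 10. Ppargc1a, a coactivator of gluconeogenesis and mitochondria, had 38 in 3319 bins, of which 14 went from 14 to 4 and 14 from 14 to 13. Ghr, the growth hormone receptor, had 28, of which 13 went from 6 to 14. Of 36 coagulation, complement and acute phase genes 19 were touched (52.8%): in F2, prothrombin, 8 of 10 private bins went from 14 to 4. Of the 19 circadian clock genes found 12 were touched (63.2%), with 44 private bins in Rora and 7 in Arntl. Among hepatocyte transcription factors Prox1 had 9, 6 of them from 2 to 4, and Nr5a2 had 7, 6 of them from 2 to 6.

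In the lists of other cell types the share of private bins that went from 14 to 13 is set beside that over all genes, 71711 of 110030 or 65.2%. Of 15 endothelial markers 11 were touched (73.3%), and 68 of their 107 private bins went from 14 to 13 (63.6%, near the share of all genes), most of them in Vwf, von Willebrand factor, with 57 of its 65. In Kdr, a receptor of vascular endothelial growth factor, 4 of 10 private bins went from 13 to 14 and 3 from 14 to 13, and state 13 covered 56.6% of it in WSB/EiJ against a median of 56.8% in the others. Of 19 Kupffer cell and leukocyte markers 7 were touched (36.8%), and 53 of their 62 private bins went from 14 to 13 (85.5%), among them 17 in Ptprc (CD45) and 13 in Timd4. WSB/EiJ did not have the most state 13 over these 2 genes. It had 61.2% of Ptprc against 65.0% in A/J, and 9.50% of Timd4 against 11.7% in CAST/EiJ. Of 15 stellate cell and fibroblast markers 7 were touched (46.7%), with 46 of 57 (80.7%), among them 18 in Pdgfrb and 17 in Rgs5. There WSB/EiJ had the most state 13, 34.1% against at most 20.4% at Pdgfrb and 75.1% against at most 62.9% at Rgs5. These markers had 2.49%, 2.52% and 1.46% of their bins private for leukocytes, endothelium and stellate cells, beside 2.10% of all genes. The 15 bile duct markers were touched in 8 cases (53.3%), with 1.08% of their bins private. Of these 52 private bins 12 (23.1%) went from 14 to 13, and Ezr, which links membrane to actin, had the most, 19.

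Of 30 developmental regulators 18 were touched (60%), with 1.30% of their bins private beside 2.10% of all genes. A private bin lay within 1 kb of a start in 5 of the 20 with a start in the table: Nkx2-1, Gsc, Isl1, Nkx2-5 and Hoxa13. Pax9 had 5 private bins, 3 of them from 13 to 10, and Tbx5 had 6, all from 14 to 13. Of 23 interferon and immunity-related GTPase genes 9 were touched (39.1%), with 5 private bins in Oas2 and 3 in Irf8, and of 18 ubiquitously expressed genes 5 (27.8%), with 10 in Ywhaz and 3 in Gusb. At starts, 1 of 16 hepatocyte identity genes (Apoa1) and 0 of 16 urea cycle genes had a private bin within 1 kb, against 12.6% of all genes. Of 17 hepatocyte transcription factors 4 had one, namely Prox1, Nr1i2, Foxa2 and Cebpa. With so few genes in a list, 1 or 2 genes move these shares by several points.

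Gene families read from symbols differed in how often they were touched and in length. All genes had 48.5% touched, a median length of 17.5 kb and 2.10% of their bins private. Only 98 of 1104 olfactory receptor genes (8.88%) and 46 of 354 vomeronasal receptor genes (12.99%) were touched, and their median lengths were 0.95 kb and 0.962 kb. Of their bins, 1.75% and 0.894% were private. Both families consist of close copies, so their states are less certain. At the start, within 1 kb, 5.97% of olfactory and 4.97% of vomeronasal receptor genes had a private bin, below the 12.6% of all genes. Of 25 calcium channel genes 23 were touched (92%), with 4.67% of their bins private, and of 27 glutamate receptor genes 22 (81.5%), with 2.12%. Their median lengths were 111 kb and 240.1 kb. Of 391 Zfp zinc finger genes 180 were touched (46.0%), with 1.75% of their bins private. Of those with a start, 17.1% had a private bin within 1 kb. Potassium channel genes were touched in 62 of 92 cases (67.4%), cadherin genes (symbols in Cdh) in 17 of 23 (73.9%) and chemokine genes in 7 of 37 (18.9%). In this order, they had 2.74%, 1.45% and 1.68% of their bins private, at median lengths of 34.5 kb, 147.7 kb and 3.19 kb. Of 362 solute carrier genes 230 were touched (63.5%), of 99 Cyp genes 44 (44.4%) and of 73 ribosomal protein genes 20 (27.4%). Their shares of private bins were 2.59%, 1.46% and 1.12%, at median lengths of 28.7 kb, 22.5 kb and 3.175 kb.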

How the data were processed

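ChIP-seq of 4 histone marks and input was done on liver hepatocytes of 9 strains, per the labels. The authors' deposited files give, per the file headers, 1 dense segmentation per strain with 14 states. The value used is a category, the state number in column 4, and not a count, signal or score; the score column holds 0 throughout. The submitters' processing notes name the build mm10 and the tools FastQC 0.11.5 and MACS 1.4.2, with no role. The aligner, the segmentation tool, whether reads of each strain were placed on its own sequence, and the mark content of a state are not given in the sources used here. A further file that joins the strain files was not used. No depth is given, so no value has an interval for counting error or a detection limit.

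Segments were written as states of 200-bp bins, and private bins were found as described in the report. Genes are those of RefSeq on GRCm38.p6, the build of mm10: 20665 protein-coding genes on chromosomes 1 to 19, of which 16457 had 1 or more start sites in the promoter table. A gene was touched where a private bin lay in its body or within 1 kb. The annotation table gives no exons, so a position is given as in or outside a gene body. The ratio of observed to expected CG is the number of CG times the length of 300 bases, divided by the product of the counts of C and of G.

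The genes named were the 10 with the most private bins, the 10 with the highest private share at the start, those in the 3 longest segments of each kind, and the 2 with the most private bins in each of 17 lists, of which 382 of 392 genes were found; 2 of the genes so chosen are not reported here. Other genes were picked from the start sites after their values were seen, as were the 11 families, the 6 printed promoters and the mapped regions. The members and lists were chosen with earlier results of these data known. Differences between WSB/EiJ and the other strains were not tested. Dixon's limit was used only to list strains that lay apart. Most of its measures, the number of private bins among them, were computed from private bins, which the rule itself sets. Alternatives covered the strains that must share a state, near matches, merged states, segment length, bin size, gene windows and chromosomes. The code was tested on simulated segmentations. Computation ran in Python 3.11.15 with pandas 2.3.3 and numpy 2.4.6; binomial intervals of shares, used only to sort the alternatives, came from scipy 1.17.1 and plots from matplotlib 3.10.9.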

Additional observations from a re-analysis of the deposited data

Results flagged for a closer look

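The highest and lowest strain were checked against Dixon's 95% limit in 33 measures with 9 values each. A strain passed it in 7, against about 1.65 by chance, and several rest on the same bins. Most of the measures were computed from private bins, which the rule itself sets, so 7 against 1.65 cannot be read as a test. WSB/EiJ lay apart in 1 case, which is outside the autosomes: state 13 covered 74.7% of its X chromosome, below the 84.3% to 89.0% of the other strains, although it had the highest share of state 13 on the autosomes. PWK/PhJ lay apart in the other 6, all of them computed from its private bins. It had 561176 private bins, and it departed from the state shared by the other 8 strains in 23.9% of the bins shared in state 8, 61.3% in state 9, 56.8% in state 11, 21.4% in state 13 and 5.61% in state 14.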

How the results depend on the processing

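No paired analysis was possible because each strain has 1 segmentation, and no result comes from a test. Of 108 recomputed values 56 lay within 1.5 times a count, within the 95% exact binomial interval of a percentage, or equal to a median or rank; 52 moved further. That interval treats bins as independent, which neighbours are not.

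Leaving out each of the other 8 strains in turn gave 271613 to 302286 private bins, 82118 to 90473 segments and 10588 to 11774 genes touched. Losses to state 14 ranged from 7.75% to 11.1%, gains from 80.3% to 86.3%, the median length stayed at 400 bp, and the rank was 2 without CAST/EiJ or without PWK/PhJ and 3 otherwise. With at least 7 of 8 strains sharing a state there were 513927 bins in 149825 segments, with 12.4% losses and 78.5% gains. With states 13 and 14 as 1 state, 57575 bins in 30954 segments remained, with a median of 200 bp, 12.3% losses, 63.7% gains and rank 4. Where the WSB/EiJ state had to be absent within 1 bin in other strains, losses were 6.40% and gains 90.02%. Leaving out single bins gave 46464 segments with a median of 600 bp, 6427 genes, 7.40% losses and 89.3% gains. Leaving out segments under 1000 bp gave 141283 bins in 17001 segments with a median of 1400 bp, 2889 genes, 6.19% losses, 93.3% gains and rank 2. Bins of 1000 bp gave 48810 bins in 34244 segments with a median of 1000 bp, 6060 genes, 7.89% losses and 86.2% gains. Of bins outside state 14 in at least 1 strain, 4.52% were private. With genes of all kinds 16054 were touched. Windows of 200 bp and 5 kb gave 750 and 5497 genes with a private start. Of the 10 genes with the most private bins, 7 remained among the 10 with at least 7 of 8 strains sharing a state; Ano2, Prkcb and Syn3 fell to ranks 15, 19 and 22. The causes were not tested.

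With 1 segmentation per strain, a difference of the WSB/EiJ libraries and a difference of the strain cannot be told apart. The depth of each strain's libraries is unknown, and its part in the gain of state 13 was not tested. The spread between mice of a strain is not in the segmentations, so no value here has an error. Bins are 200 bp wide, so a shift of a border by less than that is not seen.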
